A study of Mus musculus with 9 samples.

Results

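E12.5 mouse retinas that carry GFP at both Neurog2 alleles had higher levels of Smoc1, Gje1, Kcnk1, F5, Flrt2 and Tmem60 than retinas with GFP at a single allele. These genes are 6 of 12247 gene symbols listed in the comparison of mutant with heterozygote retinas, and all 6 are also listed among the 11989 symbols of the comparison of knock-in with mutant retinas. They were chosen by name for their RPKM values (read density scaled to transcript length and mapped reads), which were higher in the mutant than in the heterozygote group, and in part for lower values in the knock-in group. Both differences are therefore given as a description.

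The 9 samples are total RNA from optic cups of CD-1 embryos, dissected for GFP in pairs, in 3 groups of 3. Heterozygotes were Neurog2GFP/+, mutants were Neurog2GFP/GFP, and the knock-in group carried Neurog2GFP on one chromosome and a coding sequence knocked into Neurog2 on the other, so every group carried at least 1 GFP allele and none was wild type. Each deposited table holds 1 pooled RPKM value per transcript and group. No value per sample, spread between replicates or depth can therefore be given, and overlap between the samples of 2 groups cannot be read. The error enters only through the p and q of the authors' deposited tables, where a transcript is called at a q of 0.05 or less. Whether samples came from separate litters is not labelled, so these tests may measure technical spread only. In bulk retina, fewer cells of a type and less RNA per cell cannot be told apart.

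Neurog2 is a proneural factor with a basic helix-loop-helix (bHLH) domain, which pushes dividing progenitors towards a neuronal fate and binds DNA at E-boxes, the hexamer CANNTG. The retina at this age consists mostly of progenitors, and the ganglion cells are the first neurons to leave the cycle. The 6 genes belong to no single pathway. Smoc1 encodes a secreted calcium-binding matrix protein of the SPARC family that restrains BMP signalling and is needed for eye and limb formation. Gje1 encodes a connexin-like membrane protein known for its role in the lens. Kcnk1 encodes a potassium channel of the tandem pore domain family. F5 encodes coagulation factor V, and Flrt2 a membrane protein with leucine-rich repeats that binds Unc5 receptors and latrophilins in cell adhesion and repulsion. Tmem60 encodes a small membrane protein.

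The groups differed in ways that bear on every value below. For Neurog2 itself the heterozygote had 30.2 RPKM and the mutant 36.2 RPKM (q = 0.993, the authors' deposited table), and in the other table the mutant had 35.5 RPKM and the knock-in group 112 RPKM (q = 0.0104, the authors' deposited table). The untranslated part of the transcript is not separated from the coding part, so this value does not check the labels, and those groups are called mutant-labelled and knock-in-labelled from here on. The summed RPKM of 4 Y-linked genes was 42.7 in the heterozygote, 0.0273 in the mutant-labelled group and 66.2 in the knock-in-labelled group, so sex differed between the groups. None of the 6 genes is on X or Y. The sample titles carry the number 466 for heterozygotes and mutants and 311 for the knock-in samples; whatever it marks cannot be told apart from the knock-in label. The part of sex in the results was not tested.

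The genes lie on 5 chromosomes of mm10 and all encode proteins in the GENCODE annotation of that assembly. Smoc1 is on chromosome 12 from 81026808 to 81186414 and Flrt2 on the same chromosome from 95692226 to 95785215. Kcnk1 is on chromosome 8 from 125995170 to 126030685, F5 on chromosome 1 from 164151838 to 164220277, and Tmem60 on chromosome 5 from 20882191 to 20886870. Gje1 is a gene of 2592 bases on the minus strand of chromosome 10, from 14715623 to 14718214. It lies within Nmbr, a gene on the opposite strand, and the authors' locus for Gje1 has the ends of Nmbr, from 14705591 to 14770850. Exons of Gje1 and Nmbr do not overlap, and Nmbr is listed in neither table. The locus of F5 likewise starts with the gene before it, Selp, which is not listed either. Antisense or non-coding transcripts overlap exons of Kcnk1 (Gm45875) and F5 (Gm16548). No source used here says that strand was counted, so reads from such partners cannot be told apart from those of the gene.

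Since the genes were higher where Neurog2 was targeted, the sequence before their start sites was searched for E-boxes. RefSeq promoter sequences on GRCm38.p6 were matched for 4 of the 6 genes, Kcnk1, F5, Flrt2 and Tmem60. In the 250 bases before the start, CANNTG (a palindrome, so both strands are read at once) was present in 3 of the 4 promoters, all but F5, against 66.2% of all 32851 promoters. Each match is shown with 9 bases on either side and the hexamer in capitals, because these are the letters a bHLH factor could recognise.
Kcnk1, chr8:125994893-125994916, plus strand: ttcctgttcCAGGTGgaggatggg
Kcnk1, chr8:125994972-125994995, plus strand: tctgggcagCAAATGgcttagctg
Flrt2, chr12:95692009-95692032, plus strand: cttgccaccCAAGTGcccctagac
Flrt2, chr12:95692046-95692069, plus strand: ctggaactgCACGTGaacaaagct
Tmem60, chr5:20882353-20882376, plus strand: actggcggcCAAATGaaccaataa
The forms CAGATG (14.4% of all promoters, either strand) and CAGCTG (4271 of the 32851 promoters) were in none of the 4. CAAATG was in 2 of them, Kcnk1 and Tmem60, against 3940 of the 32851 on either strand. The start that RefSeq gives for Tmem60 lies within the gene as GENCODE draws it. A match is a description of the letters in this window, and no match says nothing about the factor.

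In the mutant-labelled group the summed RPKM of the 6 genes was 1.74-fold to 2.54-fold that of the heterozygote. Each had 1 transcript called higher, at the smallest q of the authors' deposited table, 0.0109. Of all listed genes 0.245% had a transcript called higher and 1.09% one called lower; the choice of the genes used this contrast, so nothing is read from that share. Gje1 was at 20.7 RPKM in heterozygotes against 52.4 RPKM in the mutant-labelled group, a log2 ratio of 1.34. Kcnk1 was at 8.12 and 18.7 RPKM, a log2 ratio of 1.21. F5, the least abundant of the 6, was at 1.98 and 4.49 RPKM, a log2 ratio of 1.18. Tmem60, the most abundant, was at 42.5 and 73.7 RPKM, a log2 ratio of 0.80. These 4 genes have a single listed transcript in each table, so gene and transcript values are the same.

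**Figure D1:**
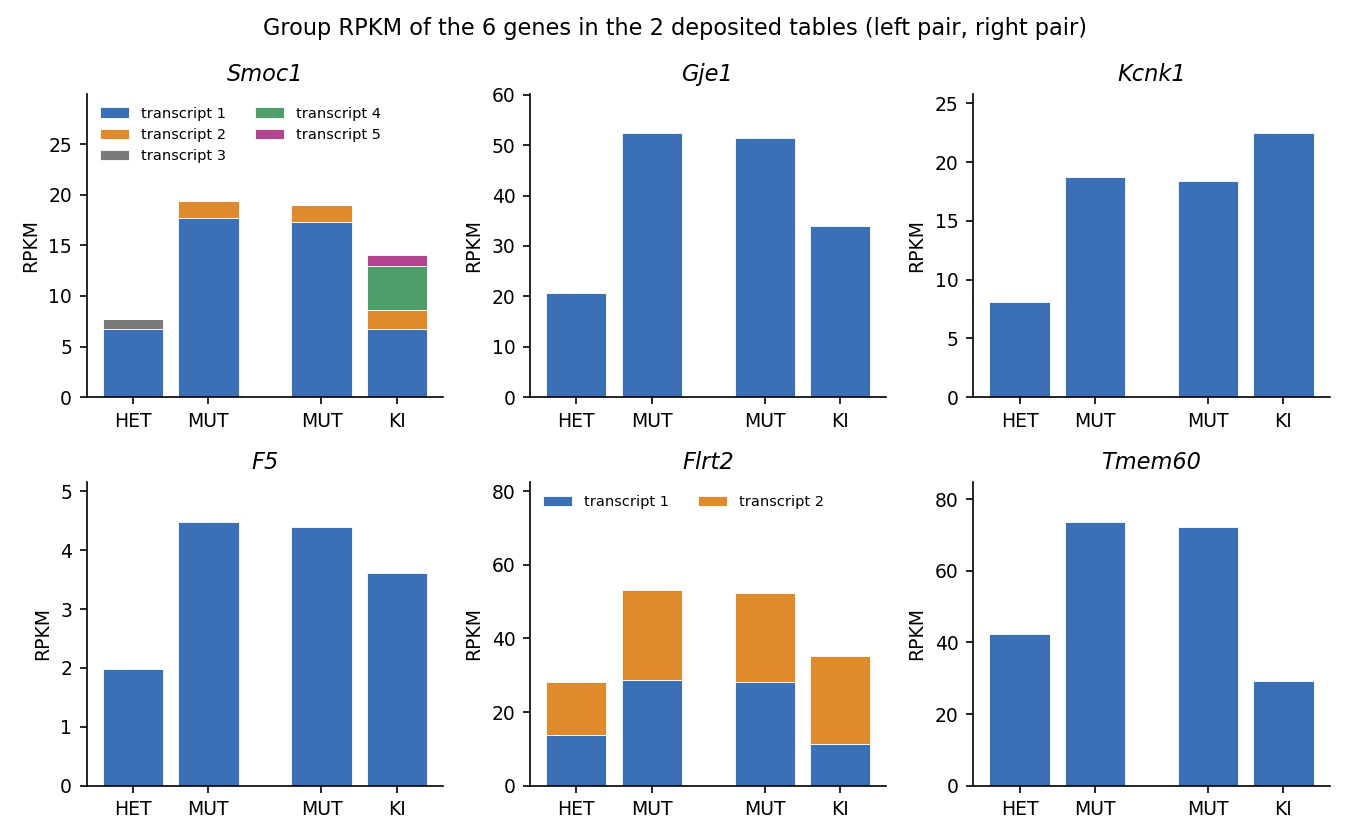
Group RPKM (y axis, from 0, a scale per gene) of the 6 genes in the heterozygote (HET) and mutant-labelled (MUT) columns of the first table and the mutant-labelled and knock-in-labelled (KI) columns of the second; colours stack the listed transcripts, and no error bars can be drawn because the tables hold 1 value per group. Each gene is higher in MUT than in HET, and in KI all but Kcnk1 are lower than in MUT.

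Smoc1 and Flrt2 have several listed transcripts, and the rise of the gene was not the same in each. The first Smoc1 transcript rose from 6.73 to 17.7 RPKM, a log2 ratio of 1.39. Another was listed at 0.00019 RPKM in heterozygotes and at 1.67 RPKM in the mutant-labelled group (p = 0.247, the authors' deposited table). The last went the other way, from 0.950 to 0.00631 RPKM (p = 0.401, the authors' deposited table). Summed, Smoc1 was at 7.68 and 19.3 RPKM. For Flrt2 both transcripts were higher. The transcript called was at 14.5 and 24.5 RPKM, a log2 ratio of 0.76. The other had the larger log2 ratio, 1.08 (13.6 and 28.7 RPKM), but a q of 0.0933 in the authors' deposited table, just outside the threshold. Summed, Flrt2 was at 28.1 and 53.2 RPKM, a log2 ratio of 0.92. How RPKM is shared among overlapping transcripts is an estimate, so both sums and single transcripts are given.

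The second table sets knock-in-labelled against mutant-labelled retinas. It shares the mutant-labelled samples with the first, and genes picked as high in those samples lean towards lower values against any other group. Summed RPKM was lower in the knock-in-labelled group for 5 of the 6 genes, and 3 passed the test as lower: Tmem60, Gje1 and Flrt2. Of all listed genes 0.634% had a transcript called lower in this comparison. The genes called higher in the mutant-labelled group number 30, the 6 included, and 25 of the 30 had lower summed RPKM here. Besides the 3 named, none of the 30 was called lower here. These 3 were taken into the group for that reason, so the count is a description. None of the 6 was called higher, where 1.03% of all listed genes were.

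Tmem60 had the largest difference, from 72.3 to 29.3 RPKM (log2 ratio -1.30, q = 0.0104, the authors' deposited table). Gje1 fell from 51.4 to 34.0 RPKM (log2 ratio -0.59, q = 0.0413, the authors' deposited table). F5 was at 4.40 and 3.61 RPKM (log2 ratio -0.29, q = 0.783, the authors' deposited table). Kcnk1 was the one gene with a higher value in the knock-in-labelled group, 18.4 and 22.5 RPKM (log2 ratio 0.29, q = 0.783, the authors' deposited table). Thus the potassium channel gene and the coagulation factor gene showed no called change between these groups, which does not show that they were equal.

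The transcripts of Flrt2 and Smoc1 parted in the knock-in-labelled group. Transcripts carry different numbers in the tables and were matched by their mutant-labelled values, which agree to within 1% after rescaling. The Flrt2 transcript called higher in the mutant-labelled group was at 24.0 and 23.8 RPKM here (log2 ratio -0.01, q = 0.986, the authors' deposited table). The other Flrt2 transcript fell from 28.2 to 11.3 RPKM (log2 ratio -1.32, q = 0.0413, the authors' deposited table). The fall of the summed gene, from 52.2 to 35.1 RPKM, therefore came from the transcript whose rise was not called. The main Smoc1 transcript was at 17.3 and 6.73 RPKM, a log2 ratio of -1.37 that did not pass (q = 0.0736, the authors' deposited table). Another Smoc1 transcript was at 0.00725 and 4.32 RPKM (p = 0.248, the authors' deposited table). With all its transcripts summed, Smoc1 was at 19.0 and 14.0 RPKM, a log2 ratio of -0.44.

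Knock-in-labelled values were set against the heterozygote by rescaling the second table by 1.02, the median ratio of the mutant-labelled values of 5047 genes with a single transcript in both. No test exists for this comparison. Kcnk1 stood highest above the heterozygote, at 22.9 against 8.12 RPKM, or 2.82-fold. Smoc1 was 1.86-fold, F5 1.85-fold and Gje1 1.68-fold the heterozygote. Flrt2 was 1.27-fold and Tmem60 0.704-fold, the one summed value below the heterozygote. Of the 30 genes called higher in the mutant-labelled group, the 6 included, 13 were above the heterozygote by over 1.5-fold. Of the Flrt2 transcripts, the one called higher in the mutant-labelled group was at 24.3 against 14.5 RPKM, a log2 ratio of 0.75. The other was at 11.5 against 13.6 RPKM, a log2 ratio of -0.25. By its main transcript Smoc1 was instead at 6.86 against 6.73 RPKM, a log2 ratio of 0.03. The summed Smoc1 value includes knock-in-labelled transcripts at 4.40 and 1.10 RPKM, rescaled, that were matched to no heterozygote value. The heterozygote sum includes a transcript at 0.950 RPKM with no matched knock-in-labelled value. By summed RPKM over the heterozygote, the order of the 6 genes in the knock-in-labelled group differed from that in the mutant-labelled group. In the latter Gje1 and Smoc1 led. Without spread between samples, neighbours in these orders cannot be told apart.

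**Figure D2:**
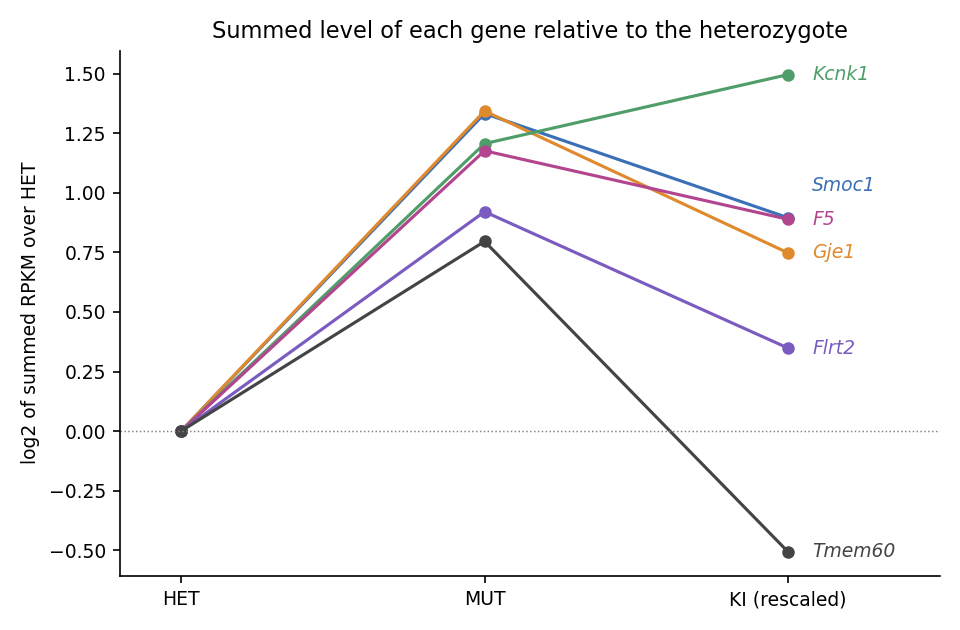
Log2 of summed RPKM relative to the heterozygote (y axis) for the 6 genes in the heterozygote, mutant-labelled and knock-in-labelled groups, the last rescaled by the mutant-labelled values common to both tables; points are single pooled values. Kcnk1 ends highest, Smoc1, F5 and Gje1 end between 0.75 and 0.90, Flrt2 at 0.35 and Tmem60 at -0.51.

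Smoc1 was then set beside the other members of the SPARC family and the BMP pathway, which it restrains. Of 6 other SPARC family genes measured in the first table, none was called higher and 1 was called lower, with a median log2 ratio of -0.45 against 0.03 over all genes. The gene called was Spock2, a testican proteoglycan, which fell from 14.1 to 8.72 RPKM. Sparc itself was at 223 and 307 RPKM (q = 0.978, the authors' deposited table). Of 25 BMP pathway genes none was called in either direction (median 0.06). In the second table a single gene of 24 was called lower, Bambi, which encodes a decoy receptor for BMP and related ligands, from 3.77 to 2.32 RPKM (q = 0.0413, the authors' deposited table). The median of the 24 was -0.07 against -0.00 over all genes.

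Gje1 was set beside the other gap junction genes. Of 5 others measured in mutant-labelled and heterozygote retinas none was called (median 0.02). Gjc1, the most abundant of them in the mutant-labelled group, was at 70.9 and 71.9 RPKM (q = 0.993, the authors' deposited table). In the second table Gja1, which encodes connexin 43, rose from 7.78 to 14.9 RPKM, the one call among 6. The lens connexin gene Gja3 was at 0.399 and 1.52 RPKM (q = 0.0717, the authors' deposited table). Gje1 fell in that comparison. Because Gje1 is known from the lens, lens markers are given beside it. Between heterozygote and mutant-labelled retinas 6 of 14 measured lens genes were higher and none was called (median -0.21), and their summed RPKM was 113 and 87.5. Foxe3, a defining lens factor, is not listed there. Between mutant-labelled and knock-in-labelled retinas 16 of 18 were higher and 3 were called higher, with summed RPKM of 88.6 and 212. Foxe3 was among the 3 called, at 0 and 1.05 RPKM (q = 0.0104, the authors' deposited table). Cryaa, a lens crystallin gene, was at 16.6 and 13.4 RPKM in the first table and rose from 13.2 to 38.1 RPKM in the second. Cryab, another crystallin gene, was at 1.31 and 2.63 RPKM in the first table (q = 0.344, the authors' deposited table) and rose from 2.58 to 20.7 RPKM in the second. Cryaa thus went the other way from Gje1 in both tables, and Cryab only in the second. The part of lens tissue in the Gje1 values was not tested.

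Kcnk1 was the most abundant of 4 measured genes of its channel family in the mutant-labelled group. The other 3 had no call in either table. Kcnk5 was at 2.01 and 2.24 RPKM in the first table and at 2.20 and 2.13 RPKM in the second. Kcnk2 was at 0.848 and 2.20 RPKM and at 1.17 and 0.815 RPKM (q = 0.993 and 0.897, the authors' deposited table); its values for the mutant-labelled group differ because other transcripts are listed. Kcnk1 was the one member of the family with a called rise, and it was chosen for that rise. In the first table the log2 ratio of Kcnk2, 1.37, was larger than that of Kcnk1, 1.21, at low RPKM and without a call.

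F5 was measured beside 7 other coagulation genes, none of them called in either table. All 7 had higher summed RPKM in the mutant-labelled group (median 0.27) and 4 of 7 were higher in the knock-in-labelled group (median 0.02). Lman1 and Mcfd2 encode the receptor pair that carries factor V out of the endoplasmic reticulum. Lman1 was at 97.3 and 111 RPKM in the first table and Mcfd2 at 31.6 and 42.3 RPKM (q = 0.993 and 0.196, the authors' deposited table). F2r, the thrombin receptor gene, was at 52.2 and 52.6 RPKM. F2 and F10, the genes of thrombin and factor X, are listed in neither table, and neither are Proc and Thbd. Of 9 other genes with discoidin-like or related domains as in factor V, Nrp1 was called, lower, from 4.39 to 1.60 RPKM; it encodes a receptor for semaphorins and VEGF. None of the 10 measured in the second table was called.

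Flrt2 was set beside 18 measured genes of its family and partners in the first table. None was called higher and 1 was called lower, Dcc, a netrin receptor gene, from 53.8 to 32.6 RPKM; the median was 0.05. Flrt1 was at 4.57 and 6.02 RPKM and Flrt3 at 23.2 and 21.2 RPKM (q = 0.638 and 0.993, the authors' deposited table). Of the Unc5 receptors, Unc5b was at 23.1 and 29.0 RPKM and Unc5a at 9.19 and 13.4 RPKM (q = 0.725 and 0.242, the authors' deposited table). Unc5c went the other way, at 2.42 and 1.80 RPKM (q = 0.993, the authors' deposited table). The latrophilin genes Adgrl1 and Adgrl2 were at 62.8 and 64.2 RPKM and at 35.5 and 38.5 RPKM. Adgrl3, the third measured latrophilin gene, was lower, at 25.6 and 18.1 RPKM (q = 0.993, the authors' deposited table). By summed RPKM 10 of the 18 genes were higher and 8 were lower. In the second table none of 16 was called, and the median was -0.18, with 11 of 16 lower. Flrt2 was the one gene of this list called higher in the first table and lower in the second, and it was chosen for these values. The calls fell on different Flrt2 transcripts.

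**Figure D3:**
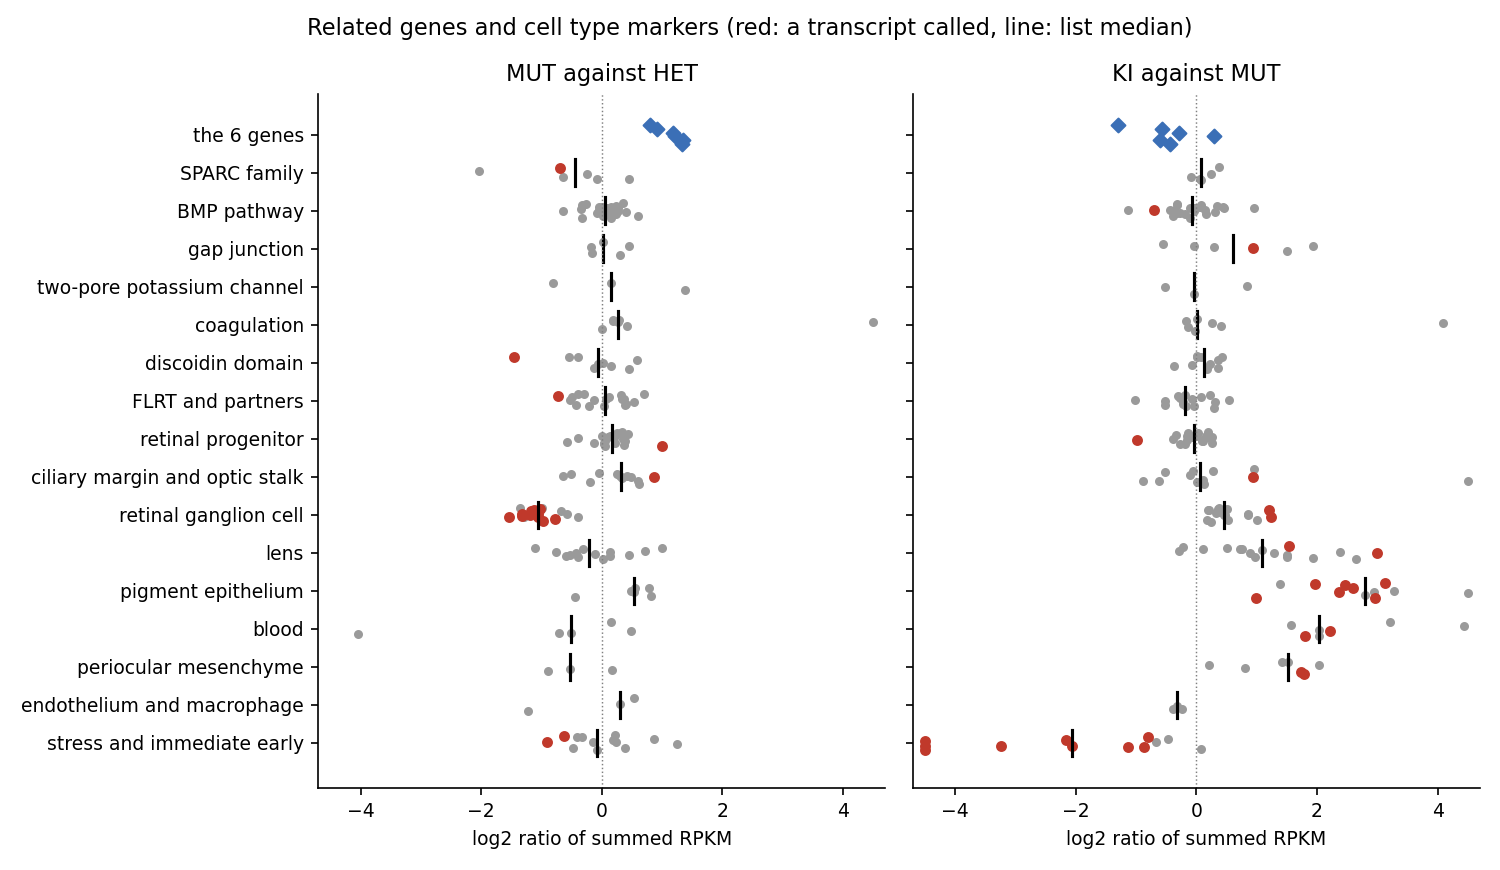
Log2 ratio of summed RPKM (x axis) in the comparisons of mutant-labelled with heterozygote (left) and knock-in-labelled with mutant-labelled retinas (right), for the 6 genes (blue diamonds) and the genes of each related or marker list (dots, red where a transcript was called); black lines are list medians, and values beyond 4.5 are drawn at the edge. The 6 genes lie right of 0 on the left panel by their choice, and ganglion cell markers lie left of 0 (median -1.06).

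Markers of the cell types in the dissection moved with these comparisons. All 17 measured ganglion cell markers were lower in the mutant-labelled group and 11 were called (median -1.06), with summed RPKM of 1295 and 678; all 17 were higher in the knock-in-labelled group, 2 of them called (median 0.45). Of 20 progenitor genes 17 were higher in the mutant-labelled group (median 0.17, summed RPKM 3096 and 3637). In the knock-in-labelled group 9 of 20 were higher (median -0.04), and Hes5, a Notch target, was the one call, from 42.3 to 21.3 RPKM. Of 12 ciliary margin and optic stalk genes 8 were higher in the mutant-labelled group (median 0.32, summed RPKM 225 and 302), and Col9a1, a collagen gene of the ciliary margin, rose (31.98 and 58.2 RPKM summed).

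Markers of pigment epithelium, blood and periocular mesenchyme were higher in the knock-in-labelled group, and those of endothelium and macrophages were lower without a call. All 13 measured pigment epithelium genes were higher there and 7 were called (median 2.79, or 1.72 with a pseudocount of 1 RPKM, summed RPKM 26.0 and 121). Between heterozygote and mutant-labelled retinas 5 of 6 were higher with no call (median 0.54, summed RPKM 20.3 and 23.8). All 7 blood genes were higher in the knock-in-labelled group, 2 of them called (summed RPKM 35.1 and 131), and so were 7 periocular mesenchyme genes, 2 of them called (summed RPKM 20.2 and 35.9). In the first table no blood gene of 5 and no mesenchyme gene of 3 was called (summed RPKM 30.8 and 34.8, and 19.5 and 18.1). The 3 measured genes of endothelium and macrophages had no call in either table (summed RPKM 34.5 and 34.9, and 34.2 and 27.6), and all 3 were lower in the knock-in-labelled group (median -0.32). Of 13 stress and immediate early genes 9 were called lower in the knock-in-labelled group (median -2.06, or -1.32 with the pseudocount) and 2 were called lower in the mutant-labelled group. The part of these lists in the levels of the 6 genes was not tested.

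None of the genes next to the 6 was called. Within 250 kb, 23 other genes are listed in the first table and 21 in the second; the medians were 0.06 and -0.11. Flrt2 has no listed neighbour in that window, and Gje1 has Vta1, at 48.5 and 50.6 RPKM in the first table and 49.6 and 46.1 RPKM in the second. Kcnk1 has Ntpcr, 247 kb away, at 2.45 and 3.25 RPKM and then at 3.73 and 3.05 RPKM. On either side of Smoc1, Slc10a1 was at 1.41 and 0.528 RPKM in the first table (q = 0.216, the authors' deposited table) and Slc8a3, a sodium-calcium exchanger gene, at 11.2 and 12.8 RPKM. Beside F5, Mettl18 was at 2.90 and 4.58 RPKM (q = 0.884, the authors' deposited table) and Slc19a2, a thiamine transporter gene, at 2.76 and 2.60 RPKM.

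Tmem60 lies 66 bases from Phtf2, which is transcribed the other way. Phtf2 was at 17.0 and 12.6 RPKM in the first table and at 12.9 and 16.2 RPKM in the second (q = 0.184 and 0.783, the authors' deposited table), so its values went opposite to those of Tmem60. Rsbn1l, 6.16 kb beyond the other end of Tmem60, was at 6.46 and 8.25 RPKM and then at 8.09 and 4.07 RPKM (q = 0.993 and 0.117, the authors' deposited table). Its values went the same way as those of Tmem60 in both tables, and neither difference passed the test.

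**Figure D4:**
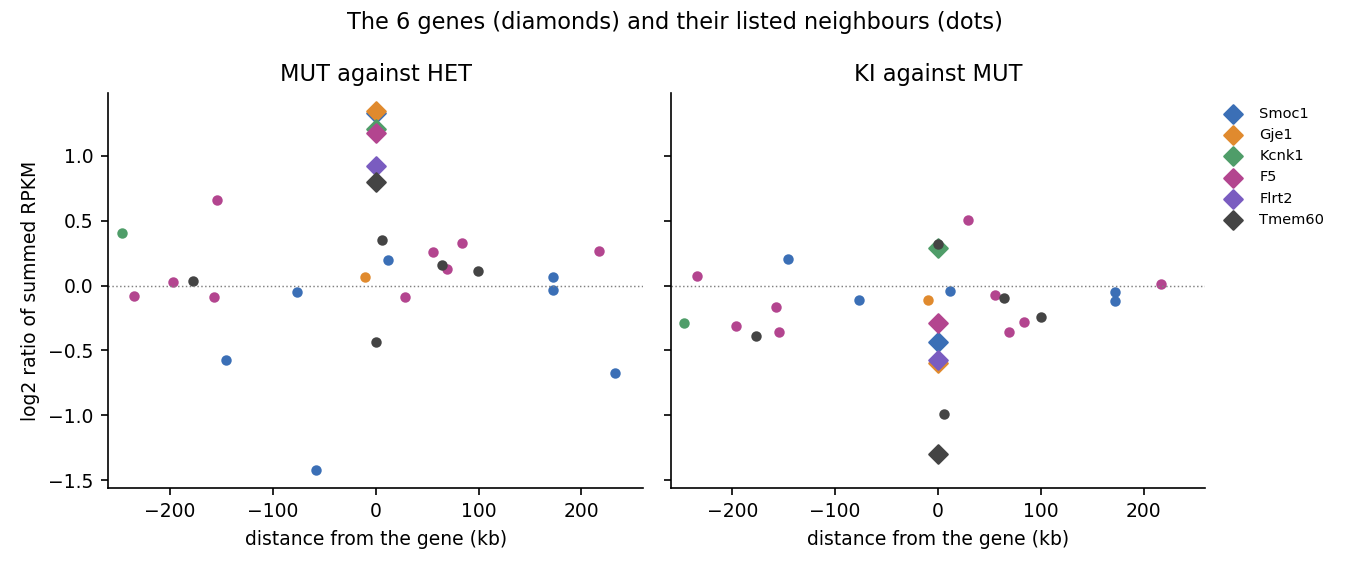
Log2 ratio of summed RPKM (y axis) of the 6 genes (diamonds, at 0) and of their listed neighbours (dots in the colour of the gene) by distance in kb between the ends of the genes (x axis, negative towards lower coordinates), for each comparison. No neighbour was called; the lowest on the left panel is Slc10a1 near Smoc1 (-1.42), and the lowest on the right is Rsbn1l near Tmem60 (-0.99).

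Genes with the most similar pattern were taken as those with the smallest Euclidean distance in the pair of log2 ratios, over 3 groups and 10456 genes with at least 1 RPKM summed in each group. With only 3 pooled groups, such likeness is a description. For Kcnk1 the nearest was Aldh1a3, a retinoic acid synthesis gene, at 11.9 and 25.3 RPKM in the first table and 24.8 and 30.6 RPKM in the second (distance 0.12), followed by Tmem62 and Hist1h2ac. For Tmem60 it was Fam161a, a retinal cilium gene (2.56 and 4.41, then 4.06 and 1.68 RPKM; distance 0.03), followed by Lypd6 and Il11ra1. For Flrt2 the nearest was Sec22a (5.77 and 10.8, then 10.6 and 7.21 RPKM; distance 0.02), followed by Slc30a7 and Adam15. For F5 the nearest were H2-Q7, Acsl1 and Sphk1, at distances of 0.12, 0.15 and 0.15. Pla2g5 was nearest to Smoc1 (distance 0.11), followed by Trim45 and Ltbp4. Trim45 was nearest to Gje1 (distance 0.09), followed by Pla2g5 and Actr5. None of these genes had a called transcript in either table. The mutant-labelled values of Trim45, Tmem62 and Lypd6 differed most between the tables, beyond the rescaling. They were 2.67 and 1.62 RPKM, 3.09 and 1.12 RPKM, and 4.25 and 3.16 RPKM. The log2 ratios of these genes in the first and second table may therefore not cover the same transcripts.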

How the data were processed

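Total RNA from E12.5 retinas was sequenced in 9 samples, grouped by labelled genotype. The tools named per the submitters' processing notes are Bowtie2, Cufflinks and Cuffdiff, with mm10 as the build; their versions and settings are not stated there. Deposited by the authors is a table for each comparison, with an RPKM value for each group and transcript, and a p-value and q-value per transcript. Samples were pooled in these values, so no test over samples could be fitted and the depth is unknown.

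From these, RPKM was summed by gene symbol, log2 ratios were computed without a pseudocount, and a gene was called if any of its transcripts had q of 0.05 or less. The deposited q-values equal a Benjamini-Hochberg adjustment over the whole first table to within 5.2e-07; the adjustment was tested on simulated data. Annotation was GENCODE M21; Python 3.11.15 and pandas 2.3.3 were used. The 6 genes and all 16 lists were chosen with earlier results of these data known.

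Named were the 6 genes; of each list up to 4 called members or, with none, the 2 most abundant; the 3 genes of nearest pattern, leaving out predicted and small RNA genes; and the nearest listed neighbours. Genes named beyond this rule, among them Sparc, Gjc1, Gja3, Mcfd2, Flrt1, Flrt3, the Unc5 and Adgrl genes, the unlisted coagulation genes and the sex-linked genes, were chosen after their values were seen. Alternatives were another threshold, a filter at 1 RPKM, adjustment by gene, a pseudocount of 1 RPKM, single transcripts, centring and other rescalings. Some items are not reported here.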

Additional observations from a re-analysis of the deposited data

How the results depend on the processing

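All 6 genes remained called higher in the mutant-labelled group at q of 0.1, a looser threshold that cannot lose a call. They also did with transcripts of at least 1 RPKM in both groups and with adjustment by gene. The choice of the genes used this contrast, so these counts are a description. The number called lower in the knock-in-labelled group was 3 with the filter at 1 RPKM and with adjustment by gene. At q of 0.1 it was 4, where Smoc1 joined. The number above the heterozygote by over 1.5-fold in the knock-in-labelled group was 4 under every rescaling. It was also 4 with the most abundant matched transcript, an alternative chosen after seeing the data, but with Flrt2 (log2 ratio 0.75) in place of Smoc1 (0.03). For Flrt2 this was the more abundant transcript in the heterozygote and knock-in-labelled groups. The other, more abundant in the mutant-labelled group, had a log2 ratio of -0.25. With the most abundant transcript the log2 ratio of knock-in-labelled to mutant-labelled retinas was -1.37 for Smoc1 and -0.01 for Flrt2. The summed values were -0.44 and -0.57. The Flrt2 transcript taken here was the more abundant in the knock-in-labelled group. The other was the more abundant in the mutant-labelled group, and its log2 ratio was -1.32. The share given to each transcript is estimated upstream. No log2 ratio changed sign among 159 recomputed values, some of which are counts of calls. For Flrt2 this rests on the transcript taken, because the other lay below the heterozygote in the knock-in-labelled group. The lists were recomputed at q of 0.1 and with a pseudocount of 1 RPKM, as alternatives chosen after seeing the data. For knock-in-labelled against mutant-labelled retinas the pseudocount moved the medians from 2.79 to 1.72 (pigment epithelium), 2.04 to 1.25 (blood), 1.52 to 0.81 (mesenchyme) and -2.06 to -1.32 (stress). At q of 0.1 the genes called higher there went from 3 to 6 for lens, 2 to 4 for ganglion cells, 1 to 2 for gap junctions and for ciliary margin, and 0 to 1 for the BMP pathway and the Flrt2 partners. In the mutant-labelled group the Flrt2 partners called lower went from 1 to 2 and the stress genes called higher from 0 to 1. No paired analysis was possible because the tables hold 1 pooled value per group, and for the same reason no replicate could be left out.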
